A study of Mus musculus with 12 samples.

Results

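Transcript levels of 59 genes of mitosis, the kinetochore and the spindle were examined in mouse urothelium with and without Stag2. The members were a fixed list of gene symbols, all 59 of which were found among the 23337 symbols of the deposited count tables, and the rule that defines them uses no measured value, although the list was drawn up with earlier results of these data known. They were sorted by role into 9 sub-groups: mitotic chromosomes (3 genes), kinetochore (6), kinesins (12), checkpoint (3), chromosomal passenger complex (4), condensin (5), cytokinesis (4), spindle proteins (12) and mitotic entry and exit (10). The study asked what losing Stag2, an X-linked cohesin subunit, does to transcripts of the urothelium, the epithelial lining of the bladder, and its title links that loss to the DREAM complex and to quiescence. Peeled urothelium, stripped from the tissue beneath it, was taken from Stag2-WT and Stag2-KO mice, with 3 libraries in each of 4 groups. All groups ate a diet with TMX (the inducer, read here as tamoxifen) for a week, the WT mice too, and were sacrificed 1 week or 1 month after its start. The 6 libraries of 1 week form batch 1, and those of 1 month fall into batch 2 (2 WT and 2 KO) and batch 3 (1 of each), so time and batch cannot be told apart. The labels do not give the driver of the recombination, the cell types it acts in, the strain, the sex or the age of the mice, nor do they say whether each library is a separate animal, so p-values measure the spread between these libraries, which may be technical in part.

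In a dividing cell, Cdk1 with its cyclins starts mitosis, condensin and topoisomerase compact and untangle the chromosomes, kinetochores tie them to a spindle shaped by kinesins, and the checkpoint holds back anaphase until every chromosome is attached. The passenger complex corrects faulty attachments and cytokinesis then separates the daughter cells. In resting cells most of these genes are silenced by the DREAM complex, whose MuvB core binds a promoter element called the CHR, often paired with CCAAT boxes bound by NF-Y. The adult urothelium renews slowly, and few of its cells are in mitosis at any time.

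Promoters of the listed genes are shown first, since the CHR is the site through which DREAM reaches late cell cycle genes. RefSeq promoters (build GRCm38.p6, 250 bases before to 50 after each start) were found for 49 of the 59 genes, by symbol. The sequences below cover 100 bases before to 30 after the start, on the gene's strand. They are given for the gene with the highest KO over WT value at 1 week in each sub-group among those with a promoter. The last 2 are the tested genes with a promoter whose log2 fold change lay nearest 0, Kif18a (0.61) and Ckap5 (0.87). Capitals mark the letters TTTGAA or TTCGAA of the CHR, read on either strand (TTCAAA is TTTGAA on the other strand), and the letters CCAAT, read on either strand (ATTGG). Prc1 has 2 starts in the table, and the first is shown.
Mki67: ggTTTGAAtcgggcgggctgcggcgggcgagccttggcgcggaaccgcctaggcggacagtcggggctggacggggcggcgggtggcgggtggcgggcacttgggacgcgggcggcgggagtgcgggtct
Cenpe: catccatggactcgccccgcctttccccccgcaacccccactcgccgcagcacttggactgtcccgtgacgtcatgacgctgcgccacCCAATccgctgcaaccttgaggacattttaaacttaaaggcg
Kif4: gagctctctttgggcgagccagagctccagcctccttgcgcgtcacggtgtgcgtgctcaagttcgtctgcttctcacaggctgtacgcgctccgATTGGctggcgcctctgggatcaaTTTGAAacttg
Ttk: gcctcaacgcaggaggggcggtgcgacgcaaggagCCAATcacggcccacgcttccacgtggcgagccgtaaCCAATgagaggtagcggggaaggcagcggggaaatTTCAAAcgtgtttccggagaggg
Birc5: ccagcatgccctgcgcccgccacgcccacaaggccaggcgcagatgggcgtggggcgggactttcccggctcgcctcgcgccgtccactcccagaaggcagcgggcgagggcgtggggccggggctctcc
Ncapg: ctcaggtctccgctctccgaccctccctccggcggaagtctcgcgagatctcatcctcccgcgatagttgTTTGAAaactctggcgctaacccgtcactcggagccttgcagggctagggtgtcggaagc
Prc1: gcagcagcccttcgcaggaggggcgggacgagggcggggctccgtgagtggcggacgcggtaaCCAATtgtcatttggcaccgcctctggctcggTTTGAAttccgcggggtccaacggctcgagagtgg
Aspm: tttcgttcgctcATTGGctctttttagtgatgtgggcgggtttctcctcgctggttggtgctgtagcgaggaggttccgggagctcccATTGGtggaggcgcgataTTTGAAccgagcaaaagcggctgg
Cdk1: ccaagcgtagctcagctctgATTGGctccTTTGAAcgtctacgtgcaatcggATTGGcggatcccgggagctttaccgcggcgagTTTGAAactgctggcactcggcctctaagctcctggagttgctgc
Kif18a: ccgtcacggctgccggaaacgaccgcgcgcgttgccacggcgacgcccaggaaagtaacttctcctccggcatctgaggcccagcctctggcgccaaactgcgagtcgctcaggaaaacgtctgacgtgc
Ckap5: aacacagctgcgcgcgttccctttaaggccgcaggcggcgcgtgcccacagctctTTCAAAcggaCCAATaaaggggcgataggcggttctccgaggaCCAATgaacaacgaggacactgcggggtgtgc

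These stretches lie at chr7:135716350-135716479 (Mki67, minus strand), chr3:135212463-135212592 (Cenpe, plus strand), chrX:100625965-100626094 (Kif4, plus strand), chr9:83834589-83834718 (Ttk, plus strand) and chr11:117849137-117849266 (Birc5, plus strand). The others lie at chr5:45669825-45669954 (Ncapg, plus strand), chr7:80294351-80294480 (Prc1, plus strand), chr1:139454673-139454802 (Aspm, plus strand), chr10:69352883-69353012 (Cdk1, minus strand), chr2:109280638-109280767 (Kif18a, plus strand) and chr2:91526662-91526791 (Ckap5, plus strand). Counting the first transcribed base as 1, CHR letters began at position 20 in Kif4, at 8 in Ttk, at 7 in Aspm, at -5 in Prc1 and at -15 and -71 in Cdk1. Mki67 held them farther out, at -98 and -116, and Cenpe, Birc5 and Kif18a held none in the whole 300 bases. Of the 49 genes with a promoter, 37 (75.5%) held CHR letters somewhere in those 300 bases, compared with 21.7% of 27025 genes in the table and 19.2% of its 32851 promoters. Within 50 bases of the start, a window chosen after the positions were seen, 32 of 49 (65.3%) held them, compared with 6.1% of all genes and 5.3% of all promoters. CCAAT letters were present in 37 of 49 (75.5%), compared with 41.1% of all genes and 37.4% of all promoters. Both CHR letters near the start and CCAAT letters were present in 28 of 49 (57.1%), compared with 2.6% of all genes and 2.2% of all promoters. A CHR match and a CCAAT match shared a base, 1 at most, in 1 of the 52 promoters of these genes and in 48 of all 32851. A match is a description of the sequence, not a bound site.

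**Figure D1:**
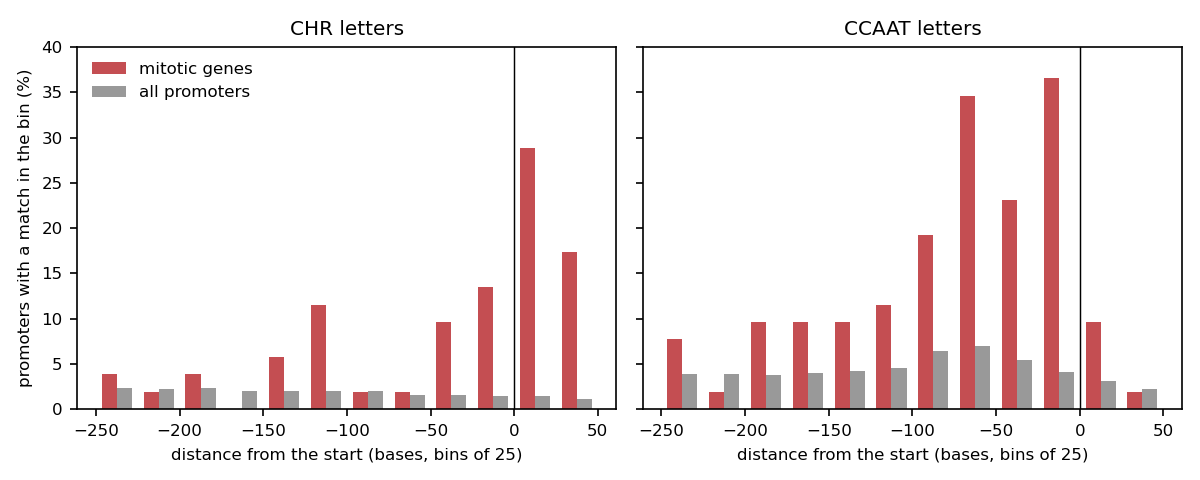
Share of promoters with a match to the CHR letters (left) or CCAAT letters (right) in each bin of 25 bases, by distance from the start, for the 52 promoters of the mitotic genes (red) and all 32851 promoters of the table (grey). The tallest red bar of the CHR letters is the bin just after the start, and the tallest of the CCAAT letters the bin just before it.

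The libraries held between 5580961 and 9497088 counts, and 3 counts, the floor used here, correspond to 0.305 to 0.632 CPM (counts relative to the library total after TMM scaling, as in all CPM below). Values are listed in the order of replicates 1, 2 and 3, which are numbered in accession order and pair nothing. Stag2 itself had 118, 106 and 151 CPM in WT and 72.2, 59.5 and 67.1 CPM in KO at 1 week, and 63.4, 64.6 and 45.1 CPM in WT and 39.4, 37.5 and 19.3 CPM in KO at 1 month, so the KO libraries were below every WT library at both times while keeping part of the signal. A 3′ tag of a transcript that lacks exons upstream would still be counted, so this checks the labels in part. Xist had at most 13 counts in each WT library of 1 week and 6392 to 10406 counts in the KO libraries, while summed Y-linked genes had 1360 to 2140 counts and at most 4, so sex and genotype cannot be told apart at 1 week. At 1 month Xist was high only in KO replicate 3 (7764 counts, at most 28 in the other libraries). KO replicate 3 of 1 week stood apart: its Spearman correlations with the other 5 libraries of that time ran from 0.648 to 0.784 over 10468 genes, compared with 0.949 to 0.982 between WT libraries. All 18 urothelial markers listed, Krt5, Upk2 and Cdh1 among them, had counts in every library.

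At 1 week the mitotic genes stood far higher in the KO libraries than in WT. In 42 of the 59 genes every KO library was above every WT library, compared with 10.4% of the 18900 genes with a count at that time, and in 2 genes (Cdca2 and Gtse1) every KO library was below, compared with 10.4%. Over all 59 genes the median log2 CPM was 0.66, 0.51 and 0.68 in WT and 2.36, 4.75 and 3.07 in KO, without overlap. Their summed level was 314, 310 and 349 CPM in WT and 604, 2513 and 1524 CPM in KO. By the fold changes that edgeR fitted, the 42 genes include the proliferation marker Mki67 (50.4-fold), the topoisomerase Top2a (19.5-fold), the kinetochore motor Cenpe (29.1-fold), the midzone bundler Prc1 (44.7-fold) and the checkpoint kinase Ttk (34.4-fold). In bulk tissue, more cells in mitosis and more RNA per cell cannot be told apart, and at 1 week neither can genotype and sex.

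No single gene of the list passed the test at 1 week. In edgeR's quasi-likelihood test 49 of the 59 genes had enough counts to be tested, and 0 passed an adjusted p of 0.05, compared with 0.0627% of 12754 genes (8 genes, 2 higher and 6 lower in KO). The smallest adjusted p was 0.0844 (Mki67). At an unadjusted p under 0.05, 39 genes were higher and 0 lower, compared with 10.5% and 5.03% of all genes. DESeq2 called 38 genes higher and 0 lower, compared with 5.4% and 2.12% of all genes, and left out Ckap5 of those 39. The log2 fold changes of the 49 ran from -1.15 (Gtse1) to 6.26 (Cdk1) with a median of 3.52, compared with 0.02 over all genes tested, and 47 were above 0, compared with 51.5% of all genes. A gene can pass the filter on low counts through its KO libraries alone, so this median describes the tested genes and supports nothing more. The call depends on the tool and on single libraries: 35 genes passed when the spread was estimated over all 12 libraries (4.21% of all genes), 12 without KO replicate 1 (0.429%), 23 without KO replicate 3 (2.45%), and 0 without KO replicate 2.

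**Figure D2:**
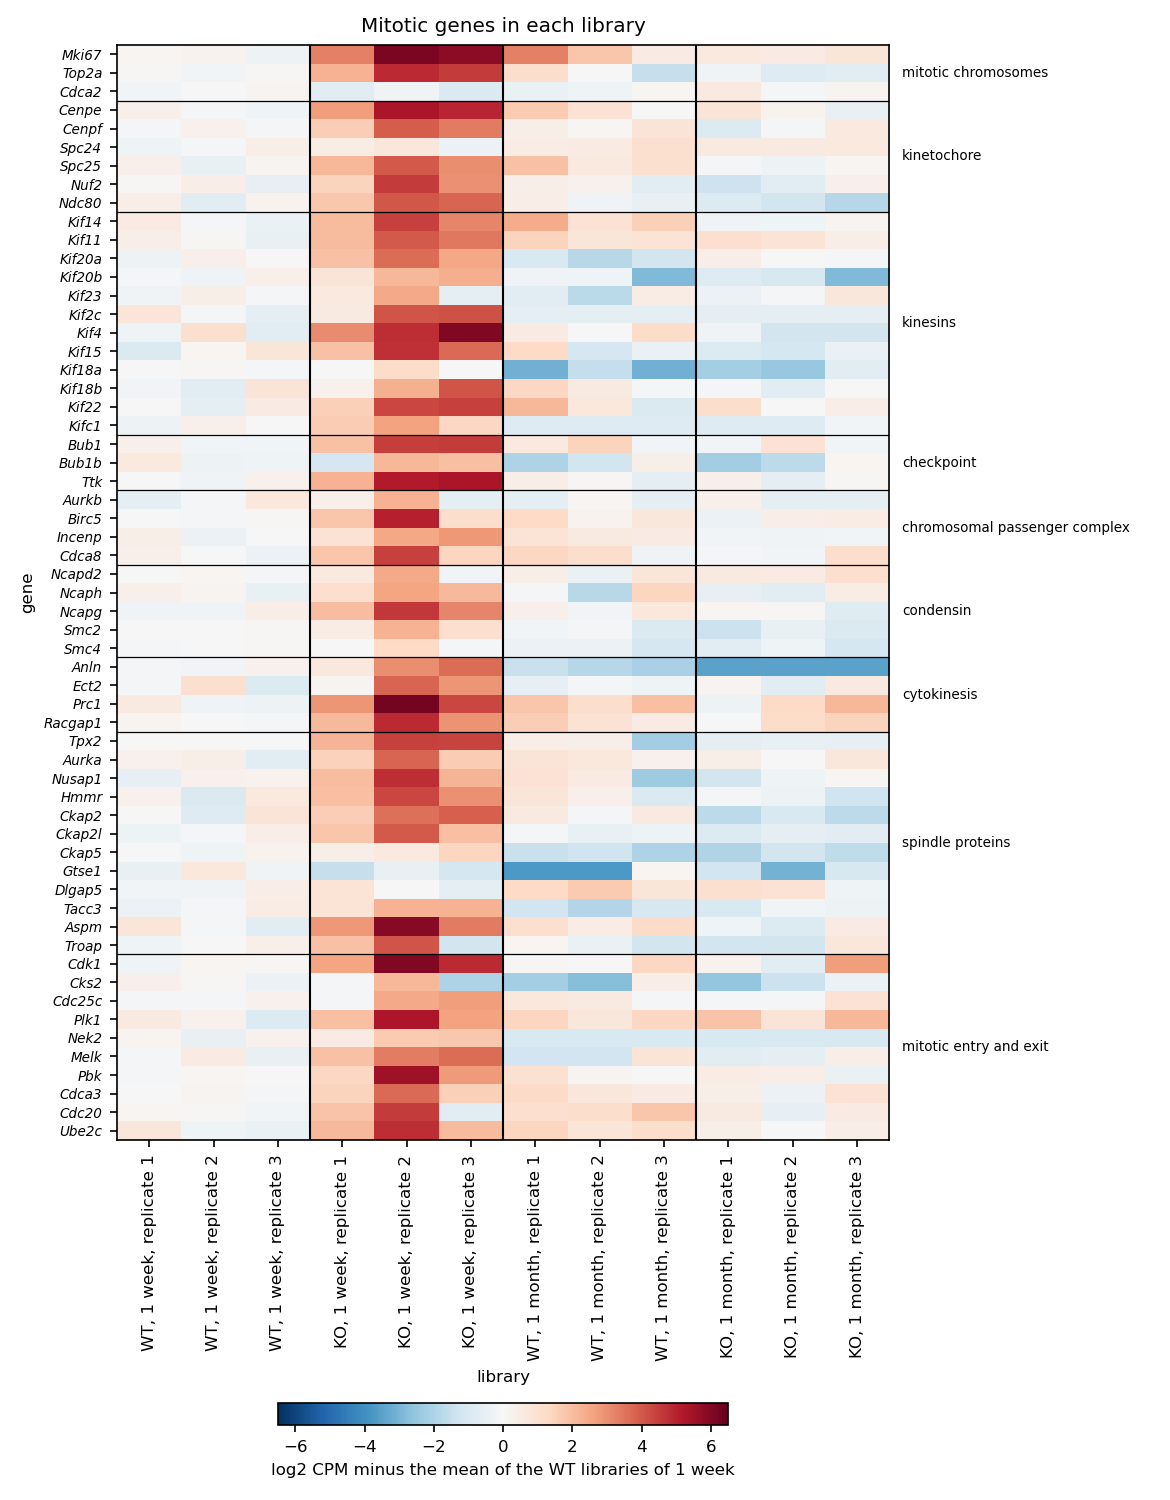
Levels of the 59 genes (one per line, sorted by role) in the 12 libraries, as log2 CPM minus the mean of the WT libraries of 1 week, on a colour scale from blue (lower) to red (higher). The KO libraries of 1 week are red for most genes, replicate 2 most deeply, and both groups of 1 month stay near the WT libraries of 1 week.

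Among the genes of mitotic chromosomes, Mki67 (chr7:135689784-135716361, minus strand, GRCm38), whose protein coats condensed chromosomes, had 2.62, 2.86 and 1.83 CPM in WT and 25.9, 188 and 153 CPM in KO at 1 week. Every KO library exceeded every WT library, and the log2 fold change was 5.66 (SE 0.79, edgeR adjusted p = 0.0844). Top2a, which untangles sister DNA, had 12.01, 10.2 and 12.1 CPM in WT and 56.5, 336 and 269.7 CPM in KO, again with no overlap (log2 fold change 4.28, SE 0.66, adjusted p = 0.0927). Cdca2, a phosphatase targeting subunit that acts on chromatin at mitotic exit, had 33.9, 37.7 and 43.8 CPM in WT and 23.3, 32.5 and 19.98 CPM in KO. Its KO libraries were all below WT, and the difference did not pass the threshold (-0.58, SE 0.30, adjusted p = 0.397).

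In the kinetochore sub-group, KO libraries were above WT in 5 of 6 genes, and the median log2 fold change of the 6 tested was 3.57. Cenpe, the motor that carries chromosomes to the spindle equator, had 2.38, 1.604 and 1.52 CPM in WT and 13.4, 82.3 and 63.9 CPM in KO (4.86, SE 0.72, edgeR adjusted p = 0.0927). Cenpf, a protein of the outer kinetochore, had 7.49, 9.86 and 7.31 CPM in WT and 25.2, 128 and 86.1 CPM in KO (3.29, SE 0.59, adjusted p = 0.0941). The remaining 4 genes encode the Ndc80 complex, which grips microtubules, and its subunits did not share a size of difference: Spc25, Nuf2 and Ndc80 had log2 fold changes of 3.35, 4.09 and 3.79. Spc24, the fourth subunit, had 19.1, 22.6 and 30.3 CPM in WT and 32.5, 39.7 and 17.8 CPM in KO (0.35, SE 0.38, adjusted p = 0.668). KO replicates 1 and 2 were above WT for Spc24, and replicate 3 was below.

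In the kinesins, the motors that build and move the spindle, KO libraries were above WT in 8 of 12 genes, and the median of the 9 tested was 3.56. Kif11, which slides spindle poles apart, had 1.902, 1.49 and 0.914 CPM in WT and 6.66, 25.9 and 17.8 CPM in KO (3.56, SE 0.61, edgeR adjusted p = 0.0927). Kif4, a motor on chromosome arms, had the highest value of the sub-group, with 0.238, 1.03 and 0.102 CPM in WT and 5.12, 17.4 and 40.95 CPM in KO (5.52, SE 1.05, adjusted p = 0.107). Kif4 lies on chromosome X (100625737 to 100727214), and the KO libraries of 1 week are also the ones with Xist. Kif20b, a motor of the midzone, had 11.9, 10.9 and 16.2 CPM in WT and 23.05, 58.9 and 67.5 CPM in KO, without overlap (1.95, SE 0.45, adjusted p = 0.1298). Kif23, the motor of centralspindlin, had 9.51, 14.8 and 10.5 CPM in WT and 18.1, 64.9 and 7.32 CPM in KO, so replicate 2 stood far above WT while replicate 3 lay below it (1.40, SE 0.73, adjusted p = 0.401). Kif18a, which damps chromosome swings at the spindle equator, had the smallest difference, with 2.14, 2.29 and 2.03 CPM in WT and 2.18, 5.28 and 2.18 CPM in KO (0.61, SE 0.51, adjusted p = 0.582). Kif2c, Kif18b and Kifc1 did not have enough counts for the test, and of these only Kifc1 had all KO libraries above WT.

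Of the 3 checkpoint genes, Bub1 and Ttk had every KO library above every WT library. Ttk, the kinase that starts checkpoint signalling at unattached kinetochores, had 0.832, 0.688 and 1.12 CPM in WT and 5.12, 41.1 and 45.7 CPM in KO (5.11, SE 0.87, edgeR adjusted p = 0.0927). Bub1, which Ttk recruits through the kinetochore scaffold, had 106 summed counts in KO and 1 in WT, a ratio of 129 after scaling (95% counting interval 22.7 to 5148), and was too low for the test. Bub1b, the subunit that holds the cyclosome in check, had 2.73, 1.26 and 1.32 CPM in WT and 0.6403, 8.51 and 7.32 CPM in KO. Replicate 1 of the KO was thus below every WT library and the other two above (1.64, SE 0.86, adjusted p = 0.405).

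For the chromosomal passenger complex, 3 of its 4 subunits had all KO libraries above WT, and Aurkb, the kinase, had too few counts for the test. Birc5, also called survivin, had 1.78, 1.604 and 1.83 CPM in WT and 6.66, 66.6 and 4.15 CPM in KO (3.90, SE 1.09, edgeR adjusted p = 0.172). Cdca8, or borealin, which joins the complex to chromatin with Birc5, had 3.92, 3.09 and 2.23 CPM in WT and 11.01, 71.7 and 8.51 CPM in KO (3.32, SE 0.88, adjusted p = 0.159). In both, replicate 2 stood many times above the other KO libraries. Incenp, the scaffold, had 15.9, 9.28 and 12.6 CPM in WT and 23.7, 70.95 and 90.02 CPM in KO, with replicate 3 highest (2.30, SE 0.52, adjusted p = 0.127).

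Condensin had the lowest median of the 9 sub-groups, 1.5 over its 5 genes, and KO libraries were above WT in 3. Sub-group medians cover tested genes, some of which passed the filter on low counts through their KO libraries, so this rank is only a description. Smc2 and Smc4 are the ATPases shared by both condensins. Smc2 had 21.8, 21.8 and 23.96 CPM in WT and 32.01, 107 and 49.1 CPM in KO (1.5, SE 0.45, edgeR adjusted p = 0.197). Smc4 had 59.9, 61.2 and 67.01 CPM in WT and 64.8, 153 and 56.8 CPM in KO, with replicate 2 alone clearly above WT (0.57, SE 0.41, adjusted p = 0.529). Without that library the log2 fold change of Smc4 was -0.05. Ncapg, a subunit of condensin I, had 0.357, 0.344 and 0.711 CPM in WT and 2.69, 17.7 and 6.33 CPM in KO, without overlap (4.20, SE 0.83, adjusted p = 0.1097).

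Of the 4 cytokinesis genes, 3 had all KO libraries above WT, with a median of 4.09 over the 3 tested. Prc1, which bundles the microtubules of the central spindle, had 1.19, 0.573 and 0.508 CPM in WT and 7.04, 74.5 and 19.98 CPM in KO (5.48, SE 0.98, edgeR adjusted p = 0.0941). Racgap1, the partner of Kif23 in centralspindlin, had 1.07, 0.917 and 0.812 CPM in WT and 4.87, 34.1 and 8.705 CPM in KO (4.09, SE 0.81, adjusted p = 0.1097). Anln, the scaffold of the contractile ring, had 2.62, 2.41 and 3.45 CPM in WT and 4.61, 24.8 and 37.2 CPM in KO (2.98, SE 0.72, adjusted p = 0.139). No KO library of these 3 genes overlapped WT. The untested member was Ect2, the exchange factor that switches on Rhoa at the midzone, whose KO replicate 1 lay within the WT range.

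Spindle proteins ranged from Gtse1 below 0 to Aspm near 5 on the log2 scale, and KO libraries were above WT in 9 of 12 and below in 1. Aspm, which sits at spindle poles, had 1.66, 0.802 and 0.406 CPM in WT and 7.81, 69.02 and 11.3 CPM in KO (4.95, SE 1.04, edgeR adjusted p = 0.115). Tacc3, which cross-links spindle fibres with clathrin, had 4.87, 6.07 and 9.14 CPM in WT and 12.3, 31.98 and 31.7 CPM in KO (1.93, SE 0.47, adjusted p = 0.139). Both were without overlap. Ckap5, a microtubule polymerase also used outside mitosis, had 40.7, 33.1 and 46.3 CPM in WT and 50.96, 62.7 and 103 CPM in KO, a small difference without overlap (0.87, SE 0.34, adjusted p = 0.287). Dlgap5, a stabiliser of kinetochore fibres, had 6.54, 6.303 and 10.4 CPM in WT and 14.2, 7.43 and 4.95 CPM in KO, and its KO libraries lay above, within and below the WT range (0.23, SE 0.49, adjusted p = 0.834). Gtse1, a microtubule-binding protein of G2 and mitosis, had 2.38, 5.73 and 2.84 CPM in WT and 1.02, 2.37 and 1.38 CPM in KO, with all KO libraries below WT (-1.15, SE 0.57, adjusted p = 0.376).

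Among the genes of mitotic entry and exit, KO libraries were above WT in 7 of 10, with a median of 3.77 over the 7 tested. Cdk1 (chr10:69335146-69352938, minus strand, GRCm38), the kinase that starts mitosis, had 0.119, 0.229 and 0.203 CPM in WT, under 3 counts in each library, and 2.43, 29.8 and 13.1 CPM in KO. Its fitted log2 fold change was 6.26 (SE 1.06, edgeR adjusted p = 0.0927), and the ratio of summed counts was 88.2 (95% counting interval 37.5 to 273). Ube2c, the ubiquitin-conjugating enzyme of the cyclosome, had 2.14, 0.917 and 0.812 CPM in WT and 6.02, 40.4 and 5.74 CPM in KO (3.77, SE 0.94, adjusted p = 0.141). Cdca3, linked to the breakdown of the Cdk1 inhibitor Wee1, had 1.55, 1.83 and 1.42 CPM in WT and 4.87, 23.9 and 5.14 CPM in KO (2.84, SE 0.72, adjusted p = 0.149). Cks2, the small subunit that binds Cdk1, had 9.99, 8.25 and 5.89 CPM in WT and 7.55, 36.2 and 1.78 CPM in KO, so only replicate 2 exceeded WT (0.94, SE 0.90, adjusted p = 0.625). Without replicate 2 the log2 fold change of Cks2 was -0.75. Cdc20, the cyclosome activator that the checkpoint restrains, had 0.951, 0.917 and 0.711 CPM in WT and 3.84, 26.6 and 0.396 CPM in KO and did not pass the filter. Cdc20 and Bub1 here, and Nuf2, Ndc80, Spc25 and Kif20a where their values are given, are named outside the rule, after their values were seen.

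**Figure D3:**
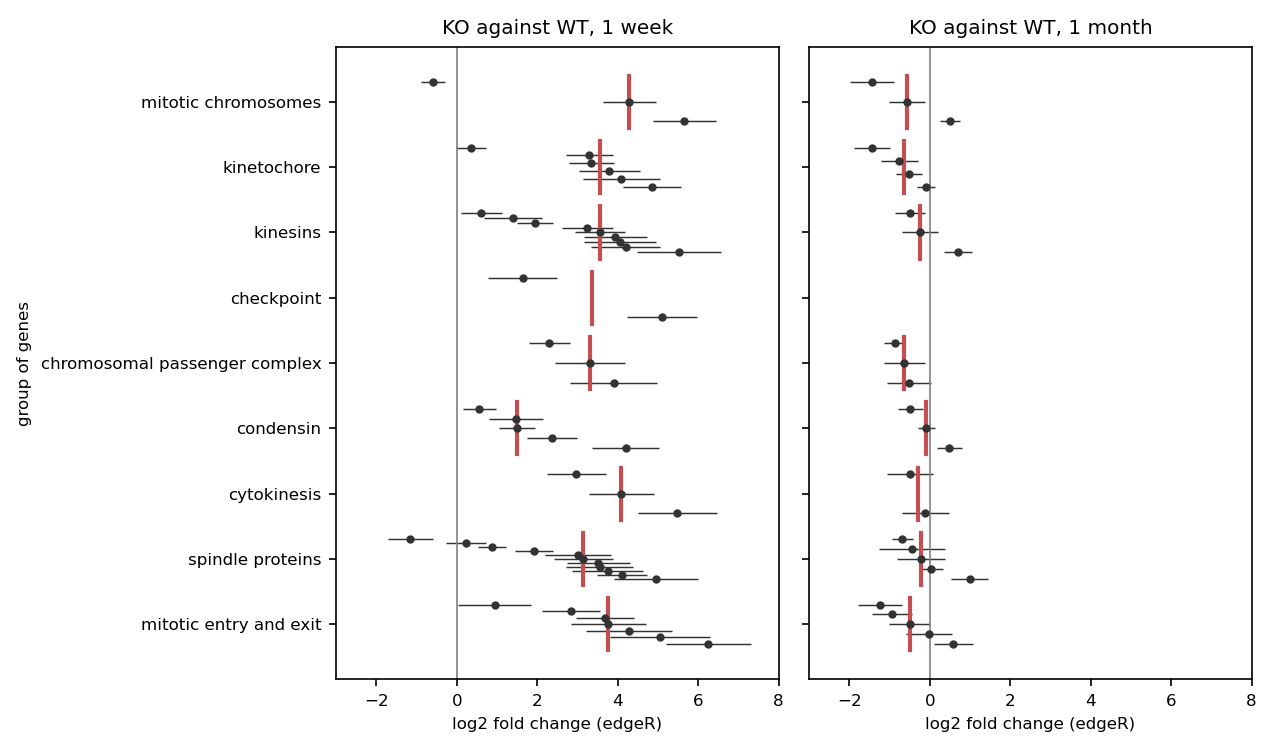
KO against WT log2 fold changes of the tested genes in each sub-group at 1 week (left, 49 genes) and 1 month (right, 28 genes), with bars of 1 standard error and the sub-group median as a red line. Medians lie between 1.5 and 4.28 at 1 week and between -0.64 and -0.09 at 1 month, where no checkpoint gene could be tested.

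The 3 KO libraries of 1 week differed from each other. Replicate 2 was the highest of the KO libraries for 44 of the 59 genes, compared with 30.4% of all genes with a count, and replicate 1 was the lowest for 44. The median distance from the WT mean was 1.61, 3.98 and 2.74 on the log2 scale. Replicate 1 was above every WT library for 48 genes (31.4% of all genes), replicate 2 for 56 (30.3%) and replicate 3 for 47 (37.7%). Replicate 1 was below every WT library for 3 genes (26.4% of all genes), replicate 2 for 2 (27.7%) and replicate 3 for 10 (35.9%), namely Cdca2, Spc24, Kif23, Ncapd2, Smc4, Gtse1, Dlgap5, Troap, Cks2 and Cdc20. It was the highest KO library for 14 genes, among them Kif4, Kif20b, Ttk, Incenp, Anln and Ckap5. So the order of replicates 2 and 3 was not the same from gene to gene within 1 complex: for the passenger complex Birc5 and Cdca8 were far lower in replicate 3 and Incenp was higher. Spliced transcript length, from the longest GENCODE M21 transcript, was set beside this as a description. The Spearman correlation of length with replicate 3 minus the mean of replicates 1 and 2 was 0.299 over the 59 genes and 0.232 over 12613 tested genes, whose values come from the same libraries. Members of at least 3586 bases had medians over WT of 1.83, 4.17 and 3.18, and shorter members 1.5, 3.69 and 2.04, compared with 0.03, -0.02 and 0.22 and with -0.05, 0.02 and -0.44 for all genes of those lengths. The part of length in these differences was not tested. Without KO replicate 3 the count of genes with every KO library above WT was 47, beside 16.2% of all genes, and by its construction that count cannot fall when a library is left out.

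**Figure D4:**
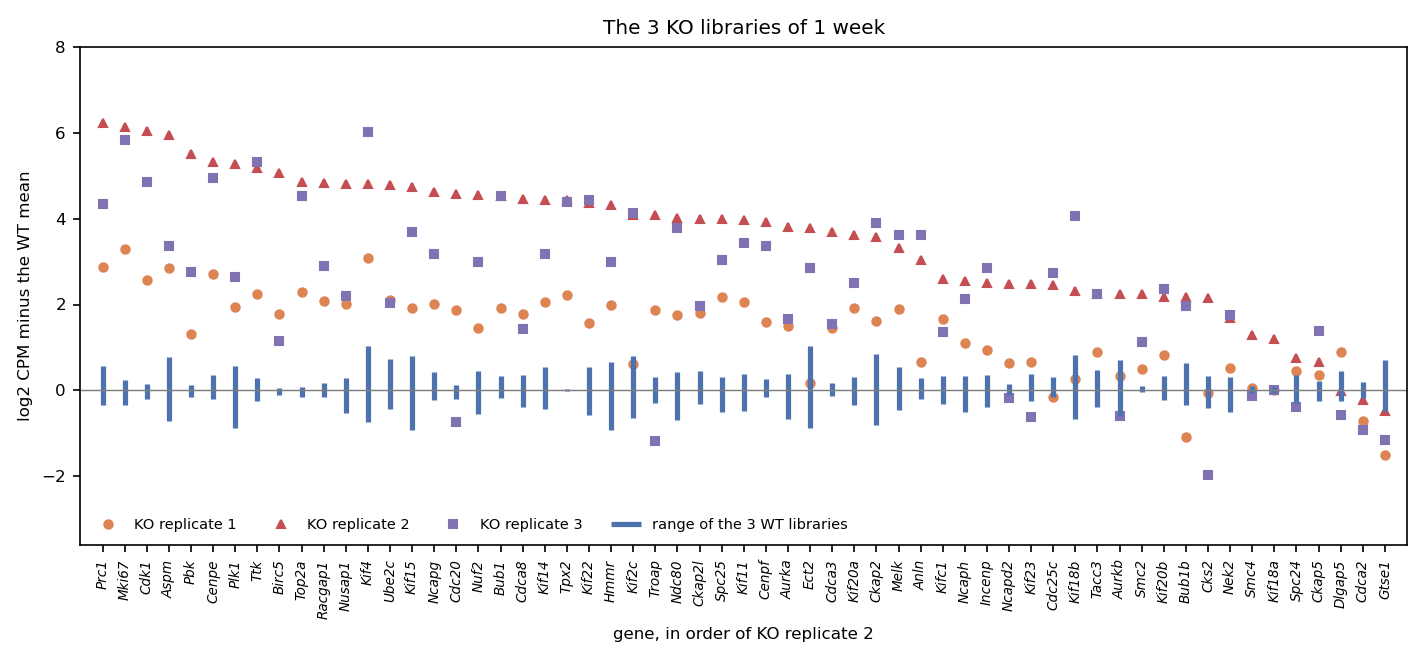
Level of each of the 59 genes in the 3 KO libraries of 1 week (points) as log2 CPM minus the WT mean, with the range of the 3 WT libraries as a blue bar, in falling order of replicate 2. Replicate 2 (triangles) is above the blue bar for 56 genes, and replicate 3 (squares) falls below it for 10.

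Summed markers of some other cell types were also higher in KO at 1 week, and no single marker passed the edgeR threshold. DESeq2 called Tagln (adjusted p = 7.38e-05), Pdgfra (0.00081), Col1a1 (0.0207), Csf1r (0.0275) and Pecam1 (0.035) higher in KO, and no other marker. It called 5.4% of all genes higher. Over all genes with a count, 10.4% were above WT in every KO library and 10.4% were below. Summed urothelial markers were 13710 to 16550 CPM in WT and 12090 to 15260 CPM in KO, with 0 of 18 above and 3 below WT in every KO library (Upk1b, Trp63 and Gata3). Summed fibroblast markers were 3442 to 5619 CPM in WT and 4556 to 9978 CPM in KO (3 of 8 above). Smooth muscle markers summed to 107.9 to 283.7 CPM in WT and 333.2 to 1065 CPM in KO (2 of 6 above). For endothelium the sums were 144.8 to 168.3 and 240.1 to 431.7 CPM (3 of 5 above). For leukocytes they were 63.26 to 99.02 and 116.4 to 261.5 CPM (2 of 14 above, 1 below). The sums of smooth muscle, endothelium and leukocytes thus did not overlap between genotypes, but a few markers made up much of each sum. Csf1r alone had 74.5, 76.8 and 169 CPM in KO, while Des, Emcn and Emr1 overlapped between genotypes. Some leukocyte markers had no count in a KO library, among them Cd8a and S100a8 in replicate 1, Cd79a in replicate 2, and Cd4 and Cd68 in replicate 3. KO replicate 2, which had the highest summed mitotic level, also had the highest fibroblast and smooth muscle sums, while replicate 3 had the highest endothelial and leukocyte sums. Their part in the mitotic values was not tested.

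**Figure D5:**
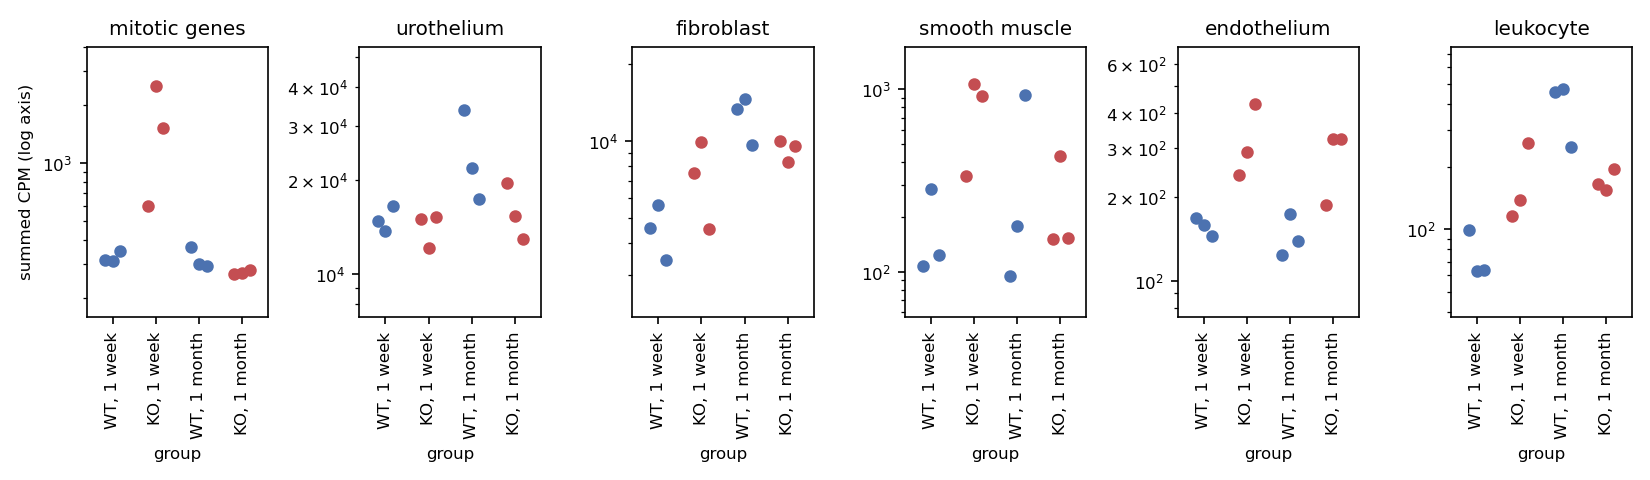
Summed CPM per library (log axis) of the 59 mitotic genes and of the marker lists for urothelium, fibroblasts, smooth muscle, endothelium and leukocytes, with WT in blue and KO in red. The mitotic sum of KO at 1 week (604 to 2513) is above all other groups, and the KO libraries of 1 month (266 to 279) lie just below their WT libraries (295 to 369).

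At 1 month the mitotic genes of both genotypes were low, and where the KO libraries stood apart they were mostly below WT. Every KO library was below every WT library for 10 of the 59 genes, compared with 5.65% of the 17990 genes with a count: Spc25, Ndc80, Kif14, Kif4, Incenp, Anln, Ckap2, Ckap2l, Cdc20 and Ube2c. Of these, Ndc80, Kif4, Anln and Ckap2 had at most 2 counts in each KO library and as few as 2 or 3 in a WT library, near the floor. For 2 genes, Kif20a and Tacc3, every KO library was above, compared with 5.57%, and Kif20a had at most 1 count in each WT library. Median log2 CPM over the 59 genes was 1.25, 0.83 and 0.82 in WT and 0.38, 0.14 and 0.84 in KO, so KO replicate 3 lay within the WT range. With batch as a covariate, 28 of the 59 genes could be tested and 0 passed, compared with 2.22% of 12139 genes (121 higher and 148 lower). At an unadjusted p under 0.05, 5 were lower (Mki67, Spc25, Incenp, Dlgap5 and Cdc20) and 1 was higher (Tacc3), compared with 10.3% and 11.1% of all genes. DESeq2 called 0 of the 18 to which it gave an adjusted p, compared with 2.97% lower and 4% higher over all genes. The median log2 fold change of the 28 was -0.49, from -1.45 (Spc25) to 0.99 (Tacc3), compared with -0.01 over all genes, and 6 of the 28 were above 0, compared with 49.6% of all genes.

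Mki67 had 25.9, 9.203 and 3.58 CPM in WT and 3.84, 3.62 and 4.4 CPM in KO at 1 month, with WT replicate 1 far above and WT replicate 3 just below the KO values (-1.44, SE 0.54, edgeR adjusted p = 0.1598). Top2a had 25.5, 11.1 and 3.87 CPM in WT and 9.72, 6.25 and 6.98 CPM in KO (-0.56, SE 0.45, adjusted p = 0.493), and its WT libraries lay on both sides of KO. Cdca2 had 28.4, 31.2 and 41.4 CPM in WT and 59.9, 36.8 and 43.7 CPM in KO (0.50, SE 0.25, adjusted p = 0.272). In the kinetochore, Cenpe had 6.53, 3.76 and 1.79 CPM in WT and 3.45, 2.14 and 1.21 CPM in KO, and the groups overlapped (-0.76, SE 0.47, adjusted p = 0.367). Cenpf had 10.7, 8.45 and 14.8 CPM in WT and 4.22, 7.57 and 12.9 CPM in KO (-0.51, SE 0.33, adjusted p = 0.387). Spc24 had 33.1, 34.4 and 48.9 CPM in WT and 34.9, 35.4 and 36.9 CPM in KO, with the KO libraries inside the WT range (-0.09, SE 0.22, adjusted p = 0.841). Its partner Spc25 had 10.9, 4.32 and 5.96 CPM in WT and 2.43, 2.14 and 3.03 CPM in KO, without overlap (-1.45, SE 0.45, adjusted p = 0.09602).

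For the kinesins at 1 month, Kif11 had 4.21, 2.63 and 2.83 CPM in WT and 3.33, 2.797 and 1.97 CPM in KO (-0.25, SE 0.45, edgeR adjusted p = 0.772). Kif20b had 10.7, 10.3 and 1.49 CPM in WT and 7.16, 6.09 and 1.52 CPM in KO, low in replicate 3 of both genotypes, the libraries of batch 3 (-0.49, SE 0.36, adjusted p = 0.459). Kif23 had 6.74, 3.19 and 16.1 CPM in WT and 8.698, 10.7 and 19.1 CPM in KO, highest in those same libraries (0.71, SE 0.34, adjusted p = 0.255). In Kif20b and Kif23 the batch 3 libraries thus lay outside the range of batch 2 in both genotypes. Kif4 had 0.632, 0.376 and 1.19 CPM in WT and 0.256, 0 and 0 CPM in KO, at most 8 counts in any library, and Kif18a had 0, 0.563 and 0 and 0.256, 0.165 and 1.21 CPM, so neither was tested. In the checkpoint, Bub1b had 0.211, 0.563 and 2.24 CPM in WT and 0.128, 0.329 and 1.82 CPM in KO, and Ttk had 1.26, 0.939 and 0.447 and 1.15, 0.494 and 0.9103 CPM. Both overlapped and were too low for the test.

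In the passenger complex, Incenp had 23.2, 18.8 and 17.9 CPM in WT and 10.9, 10.4 and 10.9 CPM in KO at 1 month, without overlap, and the smallest adjusted p of the list (-0.88, SE 0.26, edgeR adjusted p = 0.0833). Birc5 had 4.63, 2.07 and 3.13 CPM in WT and 1.28, 2.47 and 2.58 CPM in KO (-0.63, SE 0.50, adjusted p = 0.491). Cdca8 had 8.001, 6.95 and 2.53 CPM in WT and 2.69, 2.63 and 6.98 CPM in KO (-0.51, SE 0.55, adjusted p = 0.611). The last pair overlapped between genotypes. The condensin ATPases also overlapped: Smc2 had 20.003, 20.5 and 11.6 CPM in WT and 8.44, 16.3 and 11.4 CPM in KO (-0.48, SE 0.31, adjusted p = 0.383). Smc4 had 47.8, 47.9 and 29.5 CPM in WT and 37.99, 51.2 and 27.8 CPM in KO (-0.09, SE 0.22, adjusted p = 0.841). Ncapg had 0.632, 0.376 and 0.894 CPM in WT and 0.512, 0.494 and 0.152 CPM in KO and was not tested. For cytokinesis, Prc1 had 3.16, 1.88 and 3.58 CPM in WT and 0.512, 2.14 and 4.096 CPM in KO, lowest in KO replicate 1 and highest in KO replicate 3 (-0.49, SE 0.57, adjusted p = 0.643). Racgap1 had 3.37, 2.07 and 1.49 CPM in WT and 0.895, 2.47 and 3.03 CPM in KO (-0.11, SE 0.58, adjusted p = 0.9301). Anln had 0.842, 0.563 and 0.447 CPM in WT, 3 or 4 counts each, and no count in any KO library, so no fold is given.

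Among spindle proteins at 1 month, Tacc3 had 2.53, 1.502 and 2.98 CPM in WT and 3.07, 5.59 and 5.16 CPM in KO, the highest log2 fold change of the list (0.99, SE 0.46, edgeR adjusted p = 0.231). Dlgap5 had 18.7, 25.2 and 13.1 CPM in WT and 15.9, 14.8 and 6.22 CPM in KO (-0.68, SE 0.27, adjusted p = 0.177). Ckap5 had 14.5, 16.2 and 9.54 CPM in WT and 10.1, 17.4 and 12.6 CPM in KO, with wide overlap (0.03, SE 0.30, adjusted p = 0.9602). Aspm (2.11, 1.31 and 2.38 CPM in WT and 0.6396, 0.329 and 1.37 CPM in KO) and Gtse1 (0, 0 and 3.73 and 1.28, 0.165 and 1.52 CPM) were too low for the test. Of the entry and exit genes, Ube2c had 3.58, 2.25 and 2.98 CPM in WT and 1.66, 1.15 and 1.67 CPM in KO, without overlap (-0.94, SE 0.49, adjusted p = 0.284). Cdca3 had 4.21, 2.82 and 2.38 CPM in WT and 2.17, 1.15 and 3.34 CPM in KO (-0.50, SE 0.51, adjusted p = 0.594). Cks2 had 1.47, 0.939 and 10.7 CPM in WT and 1.15, 2.797 and 5.92 CPM in KO, higher in batch 3 of both genotypes (-0.02, SE 0.57, adjusted p = 0.986). Cdk1 had 0.211, 0.188 and 0.894 CPM in WT and 0.256, 0 and 2.73 CPM in KO, highest in KO replicate 3, and was not tested.

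WT replicate 1 was the highest of the 6 libraries of 1 month for 27 of the 59 genes, compared with 23.8% of all genes, and without it the median log2 fold change of the tested genes was -0.18. Within batch 2 the median KO minus WT difference of log2 CPM over the 59 genes was -0.65, and within batch 3, with 1 library of each genotype, it was 0.00. The KO library of batch 3 had 7764 Xist counts and its WT library 11, so sex and genotype cannot be told apart in that batch. In a fit of batch 2 alone Mki67, Spc25 and Cdca8 fell in KO (-2.18, -1.67 and -1.44, edgeR adjusted p = 0.00769, 0.0428 and 0.0431), a setting that called 12.2% of all genes. Leukocyte markers summed to 249.9 to 470.5 CPM in WT and 154.6 to 195.6 CPM in KO at 1 month (6 of 14 below WT in every KO library, compared with 5.65% of all genes). Endothelial markers summed to 123.6 to 173.7 and 186.9 to 323.3 CPM (2 of 5 above, compared with 5.57%). Urothelial markers summed to 17410 to 33650 CPM in WT and 12900 to 19550 CPM in KO, fibroblast markers to 9698 to 14580 and 8265 to 9991 CPM, and smooth muscle markers to 94.54 to 927.4 and 151.3 to 431.5 CPM. The markers past the edgeR threshold were Csf1r of leukocytes (log2 fold change -1.13, adjusted p = 0.0429) and Pdgfrb of fibroblasts (1.30, adjusted p = 0.0218). Neither passed without the batch term or with all 12 libraries in one fit, settings in which no gene passed. The part of these cell types in the 1-month values was not tested. Scaling by library size alone moved the median of all genes at 1 month from -0.01 to 0.22 and that of the tested mitotic genes from -0.49 to -0.24.

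The KO against WT difference was then compared between both times in a single fit of all 12 libraries, as the value at 1 month minus that at 1 week. Sex and genotype cannot be told apart at 1 week, and at 1 month Xist was high only in KO replicate 3. A part of sex in this difference thus cannot be told apart from one of genotype. Of 49 genes tested 0 passed, compared with 0% of 13122 genes, and the smallest adjusted p was 0.0879, shared by Mki67 and others. At an unadjusted p under 0.05, 36 were lower and 1 (Cdca2) higher, compared with 12% and 7.87% of all genes. DESeq2 called 34 lower and 0 higher, compared with 4.67% and 2.33%. The median was -3.84, compared with -0.04 over all genes, and 3 of the 49 were above 0, compared with 48.3%. A gene can pass the filter on low counts through the KO libraries of 1 week alone, which favours values below 0. This median and this share thus describe the tested genes and support nothing more. Mki67 had -7.10 (SE 1.08), Aspm -6.29 (SE 1.26) and Cenpe -5.62 (SE 0.86), each with an edgeR adjusted p of 0.0879. Kif20a, which carries the passenger complex to the midzone, had -0.72 (SE 1.6, adjusted p = 0.821), and its KO libraries were above WT at both times. Leaving out KO replicate 1, 2 or 3 of 1 week brought the count of genes called lower to 25, 15 and 24, beside 1.61%, 3.29% and 2.32% of all genes.

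The values at 1 week were set beside the promoter letters as a description with no test, over genes that passed the filter on low counts. Among tested genes with CHR letters within 50 bases of the start the median log2 fold change was 3.56 (27 genes), and among those with a promoter but no such letters it was 3.62 (14 genes). Both Ckap5, with CHR letters at -45, and Kif18a, with none, had values under 1. Cenpe and Birc5, which held no CHR letters, had values of 4.86 and 3.90. Over all tested genes with a promoter, the listed genes included, the medians were 0.16 with the letters (378 genes) and 0.02 without (8707 genes).

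A further 112 genes of mitosis that are not on the list were read in the same fits, in 5 lists. At 1 week 99 could be tested and 0 passed, with a median of 0.67, compared with 0.02 over all genes tested, and KO libraries were above WT in 38 of 112, compared with 10.4% of all genes with a count. Other centromere and kinetochore genes had a median of 0.94 (16 of 38 above), mitotic cyclins and other entry regulators 1.47 (8 of 16 above), other spindle, centrosome and cytokinesis genes 0.43 (11 of 39 above), condensin II 0.17 (1 of 3 above) and the cyclosome subunits 0.05 (2 of 16 above). The genes named next had the highest mean levels of their lists. Cenpb, a centromere DNA-binding protein, had a log2 fold change of -0.21 (SE 0.27), and Bub3, a checkpoint protein, -0.42 (SE 0.44). Anapc5 and Anapc11, subunits of the cyclosome, had 1.00 (SE 0.53) and -0.02 (SE 0.65). Pttg1, or securin, had -0.43 (SE 0.67), and the phosphatase Cdc25a 0.39 (SE 0.36). Ncapd3 and Ncaph2 of condensin II had 0.17 (SE 0.27) and -0.23 (SE 0.33), the transport kinesin Kif5b 0.31 (SE 0.26) and the microtubule plus-end protein Mapre1 -0.05 (SE 0.27).

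At 1 month 74 of the 112 were tested, and 4 fell in KO while 0 rose, compared with 2.22% of all genes tested (148 lower and 121 higher). Cdc25b, the phosphatase that activates Cdk1, had 57.5, 51.5 and 55.3 CPM in WT and 19.4, 25.7 and 34.3 CPM in KO (-1.06, SE 0.23, edgeR adjusted p = 0.0327). Wee1, the kinase that inhibits Cdk1, had 68.6, 58.8 and 31.9 CPM in WT and 35.05, 19.4 and 10.2 CPM in KO (-1.34, SE 0.26, adjusted p = 0.02498), with a WT replicate below a KO one. Both regulators of Cdk1 were thus lower in KO in this fit, although they act in opposite directions. Kif3a, a kinesin of cilia and transport, had 439, 324 and 926 CPM in WT and 204, 163 and 222 CPM in KO (-1.38, SE 0.26, adjusted p = 0.0245). Haus8, a subunit of the augmin complex that branches spindle microtubules, had 10.7, 9.39 and 8.64 CPM in WT and 3.07, 3.45 and 2.73 CPM in KO (-1.62, SE 0.35, adjusted p = 0.0334). At 1 week these 4 had log2 fold changes of -0.22, 0.14, 0.25 and 0.11 in the same order, none past the threshold. The 4 calls of 1 month depend on the fit. Without the batch term 0 of 12139 genes passed at 1 month, and with all 12 libraries in one fit 0 of 13122 did.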

How the data were processed

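Total RNA of peeled urothelium was made into libraries with a stranded kit that reads transcript 3′ ends (QuantSeq), per the labels' protocols, so counts do not scale with transcript length. The authors deposited raw counts per gene in 2 tables, 1 for each time. Bowtie, TopHat, HTSeq and DESeq2 and the build mm10 are named per the submitters' processing notes, and their versions are not given in the sources used here. Every column of sample values was used.

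All genes of a table were tested with edgeR 4.0.16 in R 4.3.3 (quasi-likelihood, robust, TMM scaling, default filter on low counts by group), two-sided. P-values were adjusted by Benjamini and Hochberg's method across the whole table, and calls were made at 0.05. The 6 libraries of 1 week were fitted alone, those of 1 month alone with a batch term, and the difference between times was an interaction in a fit of 12 libraries with batch. The SE is the absolute log2 fold change over the square root of F. Printed CPM use TMM over 12 libraries, and log2 CPM a prior count of 2. Ratios of summed counts carry exact 95% binomial intervals, which like the floor of 3 counts cover counting error alone. No pair of libraries agreed within sampling noise. The fits were tested on simulated data.

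Alternatives were DESeq2 1.42.0, other scaling and filters, other batch terms and leaving out each library. The members and lists were chosen with earlier results of these data known. Members given in every library are, in each sub-group, the 2 (3 in the kinesins, spindle proteins and entry and exit) with the highest mean log2 CPM over 12 libraries, any past the threshold, and those with the largest and smallest log2 fold change at 1 week; from each of the 5 further lists, the 2 with the highest mean and any past the threshold. Promoter sequences are from RefSeq (GRCm38.p6, the assembly also called mm10), and gene positions and lengths from GENCODE M21. Column matching of WT replicate 3 at 1 month used the library name, which differs from the number in its title.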

Additional observations from a re-analysis of the deposited data

Results flagged for a closer look

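In 9 genes every KO library was above every WT library at 1 week and below every WT library at 1 month, compared with 0.768% of the 17326 genes with a count at both times. Because this pattern chose the genes, the sign of their difference between times was fixed in advance. The difference between times was tested in each as the interaction in edgeR's fit of 12 libraries, and none passed an adjusted p of 0.05. The log2 value at 1 month minus that at 1 week was -4.80 for Spc25, -6.16 for Kif14, -3.18 for Incenp and -7.29 for Ckap2, each with an adjusted p of 0.0879. It was -5.96 for Ndc80 and -8.17 for Kif4 (adjusted p = 0.0962), -8.15 for Anln and -4.71 for Ube2c (adjusted p = 0.104) and -3.67 for Ckap2l (adjusted p = 0.111). The values of Ndc80, Kif4, Anln and Ckap2 rest on at most 2 counts in each KO library of 1 month, so their size depends on the prior count of the fit. Incenp, with 63 to 85 counts in those libraries, and Spc25, with 13 to 20, do not share that limit. Ckap2l had 5 counts in each of those libraries and in WT replicate 2, so its place below WT at 1 month depended on the scaling. The same holds for Kif4, with 2 counts in KO replicate 1 and in WT replicate 2 of that time.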

How the results depend on the processing

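No paired analysis was possible because the labels carry no replicate numbers, and those used here follow accession order. At 1 week the number of mitotic genes called by edgeR, 0 as reported, was 9 with no filter on low counts (0.328% of all genes), 38 with DESeq2, 35 with all 12 libraries in one fit, and 0 to 23 when leaving out 1 library (12 without KO replicate 1, 23 without KO replicate 3). It was 0 under other scaling, without the 10 most abundant and mitochondrial genes, with a mean of at least 20 counts, and without the robust option. The 1-week median log2 fold change was 2.56 (without KO replicate 2) to 3.92 when leaving out 1 library, and the count of genes with every KO library above WT, an alternative added after seeing the data that cannot lower it, was 42 to 47. At 1 month the number called was 3 with no filter (Mki67, Spc25 and Kif14, beside 7.09% of all genes), 3 in batch 2 alone (Mki67, Spc25 and Cdca8) and 0 to 4 when leaving out 1 library (3 without WT replicate 3, 4 without KO replicate 3, which leave batch 3 with 1 library, beside 12.3% of all genes in each), and the median was -0.81 to -0.18. The 1-month number called was 0 without the batch term and with all 12 libraries in one fit, settings in which no gene passed. For the difference between times it was 16 with no filter (0.7% of all genes), 34 with DESeq2 and 0 to 25 when leaving out 1 library, and the median was -4.61 to -2.92. The cause was not tested. The fit of 12 libraries also changed the genes that passed the filter and the scaling, so it does not single out the shared spread. Of the named genes, 72 alternative values became past the threshold at 1 week, 7 at 1 month and 74 for the difference, none was past it with the opposite sign, and 29 values under it changed sign, most of them at 1 month. In those WT libraries where genes such as Bub1, Cdk1 or Aurkb had fewer than 3 counts, differences between such genes were not detectable at this depth.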

Other observations

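Regulators of the mitotic program outside the list, chosen here after their values were seen, were read in the same fits. Ccnb1, the cyclin that partners Cdk1 in mitosis, had 0.238, 0.573 and 0.508 CPM in WT and 4.23, 19.7 and 37.4 CPM in KO at 1 week (log2 fold change 5.49, edgeR adjusted p = 0.0927). Foxm1, a transcription factor that acts on G2 and mitotic genes, had 1.55, 2.41 and 1.83 CPM in WT and 4.48, 15.0 and 4.15 CPM in KO (2.05, adjusted p = 0.195). Mybl2, the MYB protein that joins the MuvB core in cycling cells, had 1.55, 1.83 and 3.55 CPM in WT and 4.87, 7.97 and 12.3 CPM in KO (1.86, adjusted p = 0.181). In all 3 genes the KO libraries were above WT at 1 week, and none passed the threshold.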
